A study of Mus musculus with 10 samples.

Results

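Of the genes on the array, 10 of the heart and its outflow tract were followed: the contractile genes Myl4, Myl7, Tnnt2, Tnni1 and Actc1, and the transcription factor genes Nkx2-5, Gata4, Gata6, Mef2c and Tbx20. They were read through all probe sets that the platform annotation pairs with only 1 gene symbol, where that symbol was 1 of these 10. This gave 10 of 12393 genes, and 19 of the 22626 probe sets on the array that are not controls. Transcripts were measured on Affymetrix arrays in dissected tissue of mouse embryos at stage E10.5 that took in the hindbrain and pharyngeal arches 1 to 4. The tissue came from 5 wildtype embryos and from 5 embryos homozygous for a gene trap in Fbln1, called Fbln1-null here. All embryos were offspring of parents that each carried 1 trapped allele, which disrupts Fbln1 in the whole animal. Fbln1 encodes fibulin-1, a secreted protein of the extracellular matrix. The trap is a constitutive allele and not a heart-specific deletion. The labels do not say which embryos shared a litter, and a p-value here can speak only for the scatter of these 10 arrays. By its title the series asked how fibulin-1 affects signalling by the growth factor FGF8.

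The heart of a midgestation mouse embryo is a beating, looped tube. Its muscle cells make contractile proteins under transcription factors of the NK2, GATA, MEF2 and T-box families, and muscle of the outflow tract is added from progenitors of the second heart field, which lie in pharyngeal mesoderm. Several of these genes are not specific to the heart. Actc1, Tnni1, Tnnt2 and Myl4 are also made in embryonic skeletal muscle, Tbx20 in motor neurons of the hindbrain, and Mef2c in skeletal muscle, endothelium, neural crest and neurons.

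Of the 10 heart genes 4 could be measured in this tissue, a share not far from the 47.7% of all genes. A probe set counted as expressed if 5 or more of the 10 arrays, of either genotype, had it above log2 4. This level was passed by 7 of the 19 probe sets, which stood for 4 of the 10 genes: Myl4, Actc1, Mef2c and Tbx20. Of all 12393 genes on the array, 5912 passed (47.7%). Another 3 probe sets, of Tnnt2, Myl7 and Tnni1, were over log2 4 on 1 to 3 arrays. The remaining 9 were under it on every array, and 4 of those read under log2 2.5 throughout, a level under which 37.9% of all values on the arrays lay. The values come from GCRMA, a background model that pulls dim probe sets to a bottom, where values have no order. It lay near log2 2.27 for Nkx2-5 and Gata4 but was not the same for every probe set. Myl7 read 3.29 in wildtype replicate 4 and in null replicates 4, 7 and 8. Tnni1 read 3.67 in wildtype replicate 5 and in null replicates 3, 4 and 7. Values well over log2 2.27 can therefore lack order too.

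**Figure D1:**
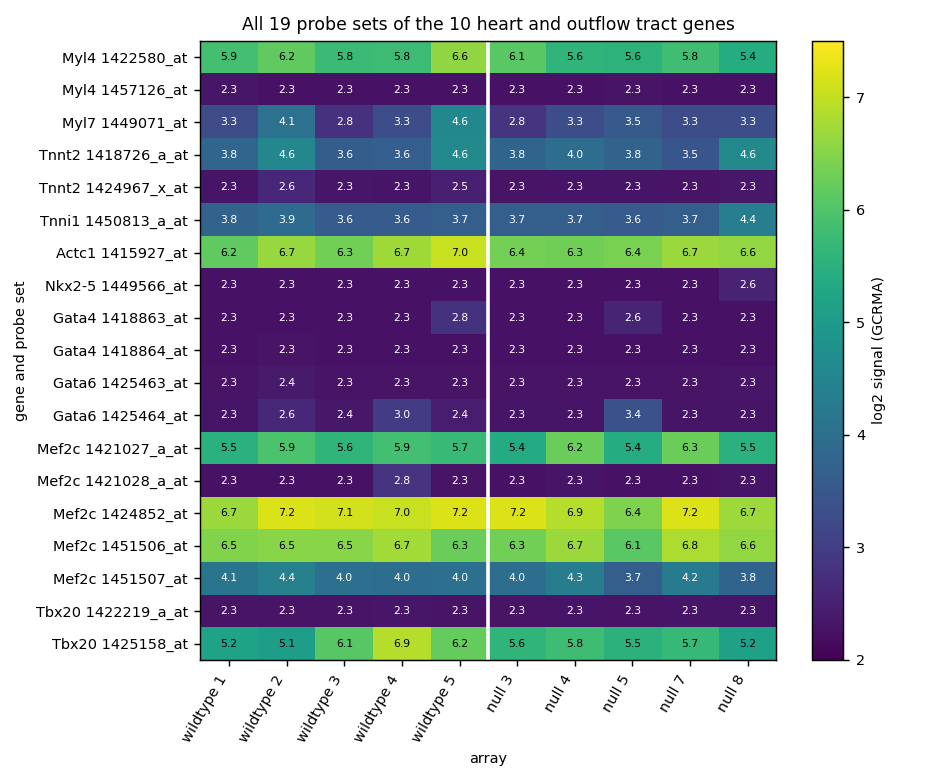
Log2 signal of the 19 probe sets (rows, by gene and probe set) on the 10 arrays (columns, 5 wildtype left of the white line and 5 Fbln1-null right of it), with each value printed to 1 decimal in its cell. The rows of Nkx2-5, Gata4 and Gata6 are dark, with 3.36 as their highest value, and the bright rows belong to Myl4, Actc1, Mef2c and Tbx20.

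Genes that define heart muscle were mostly at the bottom of the scale as well. Of 9 such genes, 8 had no array over log2 4: the myosin heavy chains Myh6 (2.29 to 2.44 over the 10 arrays) and Myh7 (2.39 to 3.97), the ventricular light chains Myl2 (2.26 to 2.59) and Myl3 (2.34 to 2.65), the cardiac troponin Tnni3 (2.27 to 2.54), the atrial hormone Nppa (2.32 to 3.09), the calcium release channel Ryr2 (3.02 to 3.60) and the Z-disc protein Actn2 (2.55 to 3.23). The exception was Tnnc1, the troponin C of heart and slow skeletal muscle, which averaged 4.55 ± 0.31 on wildtype arrays and 4.49 ± 0.30 on null arrays (SD, n = 5 each). The summed linear signal of these 9 genes ran from 70.6 to 82.2 in wildtype and from 68.3 to 82.8 in null arrays. Several of them lay near the bottom of the scale, where values have no order, so this sum does not measure an amount of heart muscle. Signal from Myl4, Actc1, Mef2c and Tbx20 was therefore read in tissue in which 8 of 9 defining genes of heart muscle were under the expression level on all 10 arrays.

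**Figure D2:**
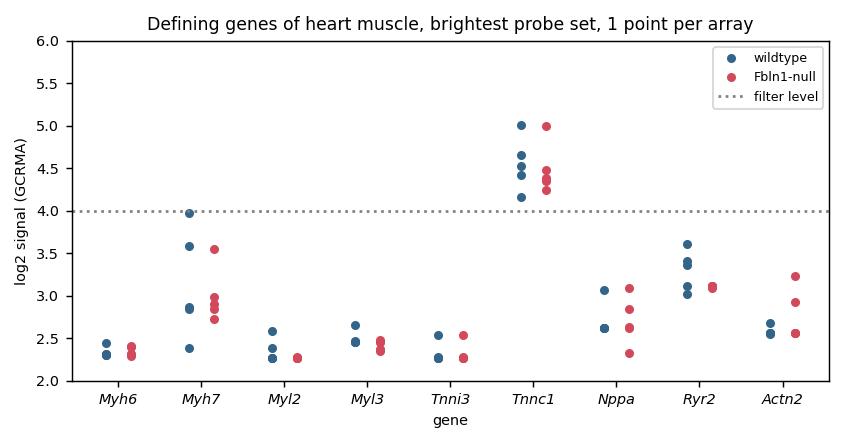
Log2 signal of 9 genes that define heart muscle, 1 point per array, with wildtype left and Fbln1-null right for each gene and the expression level of log2 4 as a dotted line. Only Tnnc1 lies over the line.

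The trap itself could be seen on the arrays, and 1 wildtype array stood apart. The brighter Fbln1 probe set read 3.83 to 5.11 in wildtype and 2.52 to 2.85 in null arrays (exact permutation test, two-sided, p = 0.00794, which is the least this design allows). Array medians lay between log2 3.20 and 3.29, and correlations between arrays were 0.985 to 0.996. Wildtype replicate 5 stood apart for Afp, the fetal serum protein alpha-fetoprotein, with 7.30 and 6.53 on the brightest of 5 Afp probe sets, where the other 9 arrays read at most 2.41 and 2.72. On another Afp probe set it read 2.28, within the range of the others (2.28 to 3.11). Alb, the serum albumin gene, read 3.91 there and at most 2.32 elsewhere. It was not the highest array for Ttr, the serum protein transthyretin, at 8.24 beside 8.96 in wildtype replicate 3 and 9.07 in null replicate 4. The summed linear signal of 10 genes of foregut endoderm and liver bud was 677 there and 422 to 775 on the other arrays. The brightest probe sets of the 7 heart genes over log2 4 on at least 1 array are given with and without this array.

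Among the heart probe sets over the expression level, none was called different between the genotypes. Most of the 19 probe sets were not over it and do not show whether their genes changed. By limma, a linear model with a shared variance estimate, 0 of the 7 probe sets over the expression level passed an adjusted p of 0.05, against 2 of 9801 over the whole array (0.0204%, or 0.0338% when each gene is counted once). At an unadjusted limma p of 0.05 there were again 0 of 7, where 12.4% of all probe sets passed. The fall in Fbln1 itself was not called by this rule, as neither of its probe sets was over the expression level. In a fit without the expression filter its brighter probe set had a log2 fold change of -1.88 (limma adjusted p = 0.0715). The dimmer one had -1.12 (limma adjusted p = 0.303). A count of 0 therefore does not show that the heart genes were unchanged. The 2 genotypes overlapped on all 19 probe sets, and they did not overlap on 2.77% of the 9801 and for 2.88% of genes. All 4 measured genes had lower means in null tissue on their brightest probe set, with a median log2 fold change of -0.25, beside a median of -0.04 over all 5912 genes, of which 56.9% had lower means (49.2% after quantile normalization of the arrays). Arrays of bulk tissue cannot tell fewer cells of a type from less RNA per cell, which holds for every difference below.

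**Figure D3:**
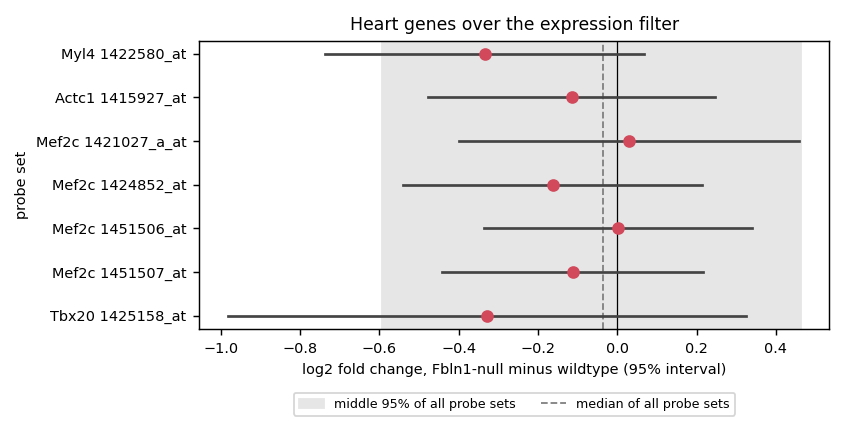
Log2 fold change (Fbln1-null minus wildtype) of the 7 probe sets over the expression level, as points with 95% intervals from the limma fit. The grey band holds the middle 95% of all 9801 probe sets (-0.59 to 0.46) and the dashed line is their median (-0.04). All 7 points lie within it and all 7 intervals include 0.

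Myl4 encodes the essential myosin light chain of the atria, which the whole early heart and embryonic skeletal muscle also use. Its brighter probe set read 5.86, 6.16, 5.76, 5.77 and 6.60 in wildtype replicates 1 to 5. In null replicates 3, 4, 5, 7 and 8 it read 6.09, 5.60, 5.56, 5.82 and 5.41. The highest array was wildtype replicate 5 and the lowest was null replicate 8, but null replicate 3 lay above 3 of the wildtype arrays, so the groups overlapped. The means were 6.03 ± 0.36 (SD, n = 5) and 5.70 ± 0.27, and the fitted difference was -0.33 on the log2 scale (SE 0.19, 95% interval -0.74 to 0.07, limma adjusted p = 0.503). This was the heart probe set with the smallest unadjusted p, 1860th of the 9801 in order of p. The interval reaches from a 1.67-fold fall to a 1.05-fold rise. Leaving out wildtype replicate 5 brought it to -0.19 (limma adjusted p = 0.717), and leaving out null replicate 3 to -0.43 (limma adjusted p = 0.403). The other Myl4 probe set lay between 2.27 and 2.34 on all arrays and carries no information on the change.

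Actc1 encodes cardiac alpha-actin, the thin-filament actin of heart and embryonic skeletal muscle. Wildtype replicates 1 to 5 read 6.16, 6.66, 6.33, 6.71 and 7.04, and null replicates 3, 4, 5, 7 and 8 read 6.36, 6.30, 6.38, 6.67 and 6.62. The null arrays all lay inside the wildtype range. The means were 6.58 ± 0.34 (SD, n = 5) and 6.46 ± 0.16, and null tissue differed by -0.12 on the log2 scale (SE 0.17, 95% interval -0.48 to 0.25, limma adjusted p = 0.836). Single arrays moved this value both ways. Without wildtype replicate 1 it was -0.22 and without wildtype replicate 3 it was -0.18. Without wildtype replicate 5 the means were 6.46 in both genotypes, and without wildtype replicates 2 and 5 the log2 fold change was 0.065.

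Myl7, Tnnt2 and Tnni1 came over log2 4 on few arrays. Myl7, the regulatory light chain of the atria and of the early heart tube, read 3.27, 4.08, 2.77, 3.29 and 4.57 in wildtype replicates 1 to 5. It read 2.83, 3.29, 3.53, 3.29 and 3.29 in null replicates 3, 4, 5, 7 and 8. Wildtype replicates 2 and 5 stood above every null array, while wildtype replicate 3 was the lowest of all 10. Tnnt2, the troponin T of heart muscle, read 3.80, 4.55, 3.62, 3.64 and 4.61 in wildtype and 3.76, 3.97, 3.76, 3.48 and 4.58 in null arrays, in the same order. Here wildtype replicates 2 and 5 and null replicate 8 were the high arrays. Tnni1, the slow troponin I of skeletal muscle and of the embryonic heart, lay between 3.57 and 3.92 in wildtype arrays and between 3.58 and 3.67 in 4 null arrays, with null replicate 8 at 4.36. In a fit without the expression filter the log2 fold changes were -0.35 for Myl7 (SE 0.33), -0.14 for Tnnt2 (SE 0.28) and 0.09 for Tnni1 (SE 0.15), and the limma adjusted p was 0.780, 0.901 and 0.874. Without wildtype replicate 5 they were -0.11 for Myl7, 0.01 for Tnnt2 and 0.08 for Tnni1. The second Tnnt2 probe set, of a type that can match transcripts of several genes, lay between 2.29 and 2.64.

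**Figure D4:**
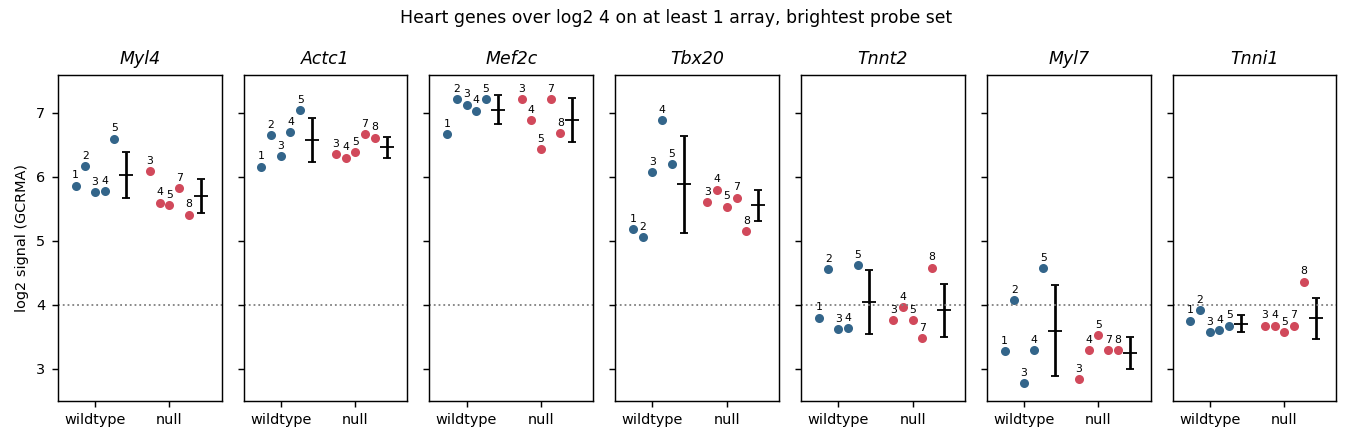
Log2 signal of the 7 heart genes that passed log2 4 (dotted line) on at least 1 array, brightest probe set, 1 point per array with its replicate number, and the mean with SD (n = 5) beside each group. The genotypes overlap for every gene, and wildtype replicate 5 is the highest array for Myl4, Actc1, Tnnt2 and Myl7.

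The contractile genes shared their highest array. Wildtype replicate 5, the array with Afp signal, had the highest value of all 10 for Myl4, Actc1, Tnnt2 and Myl7, lying above their means over all arrays by 0.73, 0.52, 0.64 and 1.15 on the log2 scale. Tnni1 lay 0.08 below its mean there. Of the 9 defining genes of heart muscle, Tnnc1 (5.01) and Ryr2 (3.60) also had their highest value of the 10 arrays there, while Myh7 had its lowest (2.39). The summed linear signal of the 9, nearly all of them under the expression level, was 82.2 in that array. This was the highest of the wildtype arrays, beside 82.1 in wildtype replicate 2 and 82.8 in null replicate 5. Wildtype replicate 2 had the next highest Myl4 and Myl7 values, and null replicate 8 was high for Tnnt2 and Tnni1 but had the lowest Myl4. The part of the Afp-rich array in the contractile values was not tested beyond leaving it out.

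**Figure D5:**
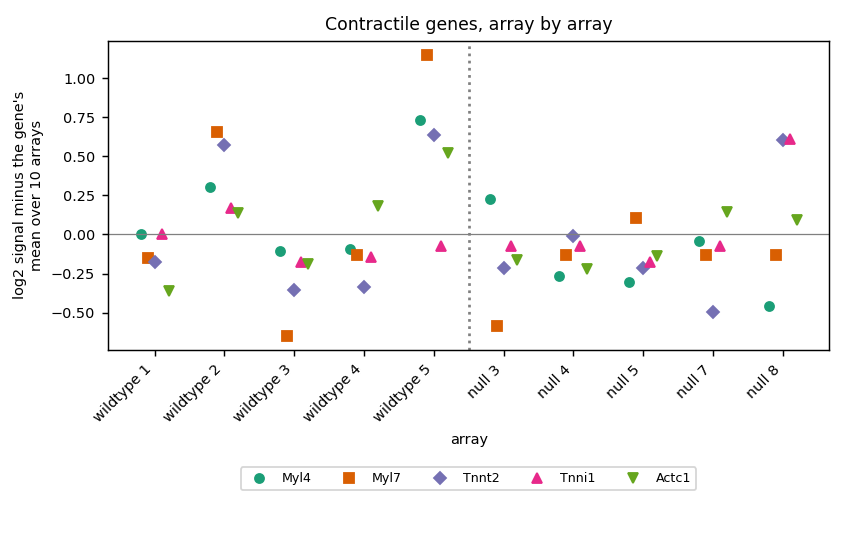
Log2 signal of the 5 contractile genes on each array, as the difference from the gene's mean over the 10 arrays, brightest probe set. Wildtype replicate 5 is high for Myl7, Myl4, Tnnt2 and Actc1, wildtype replicate 2 for Myl7 and Tnnt2, and null replicate 8 for Tnnt2 and Tnni1.

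Correlations between the heart genes across the 10 arrays did not pass after adjustment. There were 21 pairs among the 7 genes over log2 4 on at least 1 array, and the smallest Benjamini-Hochberg adjusted permutation p was 0.151 for Pearson's r and 0.257 for Spearman's rho. The pairs with the largest r were Myl7 and Actc1 (r = 0.73, permutation p = 0.0175, adjusted p = 0.151, and rho = 0.64, permutation p = 0.0534, adjusted p = 0.257) and Myl7 and Tnnt2 (r = 0.71, permutation p = 0.0216, adjusted p = 0.151, and rho = 0.62, permutation p = 0.0612, adjusted p = 0.257). Without wildtype replicates 2 and 5, the arrays farthest from the Myl7 median, r fell to 0.25 and 0.20, so both relations rested on those arrays. Tnnt2 and Tnni1 had r = 0.67 (permutation p = 0.0213, adjusted p = 0.151) and rho = 0.72 (permutation p = 0.0234, adjusted p = 0.257), with r = 0.83 when wildtype replicate 5 and null replicate 8 were left out. Myl4 and Mef2c had r = 0.66 (permutation p = 0.0340, adjusted p = 0.179) and rho = 0.70 (permutation p = 0.0305, adjusted p = 0.257), with r = 0.65 without those arrays.

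The start regions of the contractile genes that peaked in wildtype replicate 5 are shown because serum response factor and factors of the GATA, MEF2, NK2 and T-box families are known regulators of heart contractile genes. Each run is the RefSeq promoter window in assembly GRCm38.p6, 250 bases before to 50 after the annotated start, 5′ to 3′ on the gene's strand. Capitals mark matches on either strand to a GATA site (AGATAA or AGATAG), an NK2 site (TNAAGTG), a T-box core (GGTGTG), a CArG box, a MEF2 site or a TATA box (TATAAA), where a MEF2 site and a TATA box can overlap.
Myl7, chr11:5898733-5899032, minus strand: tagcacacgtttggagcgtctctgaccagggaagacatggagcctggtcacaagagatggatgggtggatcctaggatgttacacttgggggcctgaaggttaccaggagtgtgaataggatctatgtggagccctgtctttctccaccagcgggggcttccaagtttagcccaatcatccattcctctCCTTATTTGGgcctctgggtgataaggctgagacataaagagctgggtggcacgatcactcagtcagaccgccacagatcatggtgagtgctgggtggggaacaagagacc
Actc1, chr2:114052826-114053125, minus strand: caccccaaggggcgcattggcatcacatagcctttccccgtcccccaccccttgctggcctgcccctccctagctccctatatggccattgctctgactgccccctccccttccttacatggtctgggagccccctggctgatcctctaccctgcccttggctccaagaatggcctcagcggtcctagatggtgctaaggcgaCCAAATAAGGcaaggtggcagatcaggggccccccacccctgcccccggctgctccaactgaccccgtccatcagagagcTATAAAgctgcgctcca
Tnnt2, chr1:135836084-135836383, plus strand: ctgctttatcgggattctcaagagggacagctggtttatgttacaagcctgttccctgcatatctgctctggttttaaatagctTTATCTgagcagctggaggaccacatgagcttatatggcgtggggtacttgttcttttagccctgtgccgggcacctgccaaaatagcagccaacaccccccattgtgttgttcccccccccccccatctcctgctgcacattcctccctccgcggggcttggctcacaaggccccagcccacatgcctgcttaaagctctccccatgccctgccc
Myl4, chr11:104550413-104550712, plus strand: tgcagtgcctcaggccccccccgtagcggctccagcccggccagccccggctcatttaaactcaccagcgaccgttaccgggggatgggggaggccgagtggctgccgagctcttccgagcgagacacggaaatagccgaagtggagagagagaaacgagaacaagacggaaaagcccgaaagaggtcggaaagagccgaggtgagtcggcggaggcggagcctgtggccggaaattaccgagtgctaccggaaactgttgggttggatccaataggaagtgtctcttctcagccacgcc
Myl7 and Actc1 each held 1 CArG box, the element bound by serum response factor, at positions -61 to -52 in Myl7 and -47 to -38 in Actc1, counted from the annotated start with -1 as the base before it. A CArG box was found in 1.63% of all 32851 windows in the table. The Tnnt2 window shown, the first of 2 for that gene, held 1 GATA site on the reverse strand (AGATAA, in 11.2% of windows). The Actc1 window held the letters of a TATA box (in 13.6%) at positions 34 to 39, after the annotated start and not before it. The Myl4 window held no match to any of these motifs. Windows of 8 of the 10 genes were searched, 12 windows in all, and Gata4 and Gata6 were not among these genes. Of the 12 windows, 2 held a CArG box, while a MEF2 site (in 1.86% of all windows) or an NK2 site (11.5%) was in none of them. E-boxes (CANNTG), left in lower case, were in 72.3% of all windows. A match is a description of letters and says nothing of binding in this tissue.

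Among the transcription factor genes, Mef2c was the brightest. Mef2c encodes a MADS-box factor of muscle, the second heart field, endothelium, neural crest and neurons. Its brightest probe set read 6.67, 7.22, 7.13, 7.03 and 7.21 in wildtype replicates 1 to 5 and 7.21, 6.89, 6.44, 7.22 and 6.69 in null replicates 3, 4, 5, 7 and 8. Null replicate 5 was the lowest array and the groups otherwise intermingled. The means were 7.05 ± 0.23 (SD, n = 5) and 6.89 ± 0.34, and the difference was -0.16 on the log2 scale (SE 0.17, 95% interval -0.54 to 0.21, limma adjusted p = 0.756). Leaving out 1 array gave -0.051 without null replicate 5 at the one end and -0.26 without wildtype replicate 1 at the other, and -0.12 without wildtype replicate 5. The 3 other Mef2c probe sets over the expression level had log2 fold changes of 0.03, 0.002 and -0.11, with limma adjusted p-values of 0.823 to 0.998. Null replicate 5 was the lowest of the 10 arrays on 3 of the 4 probe sets and the second lowest on the other, where null replicates 4 and 7 were the highest, at 6.23 and 6.26. Over the 10 arrays the correlations between these 4 probe sets were 0.34 to 0.74, which describes readings of the same gene in the same libraries. The dimmest Mef2c probe set read 2.27 to 2.31 on 9 arrays and 2.84 in wildtype replicate 4.

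Tbx20 varied most among the measured heart genes. Tbx20 encodes a T-box factor of the heart and of cranial motor neurons. Its brighter probe set read 5.19, 5.06, 6.07, 6.89 and 6.20 in wildtype replicates 1 to 5. In null replicates 3, 4, 5, 7 and 8 it read 5.60, 5.80, 5.54, 5.67 and 5.16. The wildtype arrays enclosed all null arrays, with wildtype replicates 3, 4 and 5 above them. The within-genotype SD of 0.56 was larger than that of 96.0% of the probe sets over the expression level. The means were 5.88 ± 0.76 (SD, n = 5) and 5.55 ± 0.24, with null tissue at -0.33 on the log2 scale (SE 0.30, 95% interval -0.98 to 0.32, limma adjusted p = 0.707), and changes of up to a 1.98-fold fall lie inside this interval. Without wildtype replicate 4 it was -0.08 (limma adjusted p = 0.943), without replicate 5 it was -0.25, without replicate 1 or 2 alone it was -0.50 or -0.53, and without both of these it was -0.83 (limma adjusted p = 0.233). Wildtype replicate 4 also had the lowest summed signal of 9 neuronal genes, 2693 on the linear scale, where the other 9 arrays had 3611 to 5184. The part of neurons in the Tbx20 values was not tested. The other Tbx20 probe set lay between 2.29 and 2.33 on all arrays.

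Nkx2-5, Gata4 and Gata6 were not measurable. Nkx2-5, the homeobox factor that marks heart progenitors and muscle, read 2.27 on 9 arrays and 2.55 in null replicate 8. Gata4, a zinc-finger factor of heart and foregut endoderm, lay between 2.27 and 2.29 on 1 probe set, and on the other it read 2.27 on 8 arrays, 2.57 in null replicate 5 and 2.80 in wildtype replicate 5. Gata6, a zinc-finger factor of the outflow tract, heart and endoderm, lay between 2.29 and 2.40 on 1 probe set. Its other probe set read 3.36 in null replicate 5, 2.96 in wildtype replicate 4, 2.64 in wildtype replicate 2 and 2.31 to 2.43 on the other 7 arrays. All of these are under the expression level, so these arrays do not show whether the 3 genes changed.

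Among other heart genes none was called different either, but their means went both ways. Of 23 further contractile genes of heart muscle on the array, 5 were over the expression level, 2 with lower and 3 with higher means in null tissue, and 0 passed the test (median log2 fold change 0.03). The smallest p-values belonged to Myl1, the fast skeletal light chain, at 0.32 (SE 0.15, limma adjusted p = 0.431), Tnnt1, the slow skeletal troponin T, at 0.39 (SE 0.23), and Tpm2, beta-tropomyosin, at -0.33 (SE 0.20). Of 15 calcium-handling genes and secreted heart products 4 were measured and 0 passed (median -0.03), among them Atp2a2, the calcium pump of the sarcoplasmic reticulum, at -0.26 (SE 0.17), Gja1, the gap junction protein a connexin, at 0.13 and Cacna1c, a calcium channel subunit, at -0.09. Both lists lay close to the median of all genes.

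Of 32 further cardiac transcription factors and cofactors 14 were measured, and 0 passed, with 9 higher and 5 lower means (median 0.12). Nr2f2, a nuclear receptor of the atria and of mesenchyme, went from 9.61 ± 0.17 (SD, n = 5) to 9.93 ± 0.13, higher by 0.31 on the log2 scale (SE 0.12, limma adjusted p = 0.336). Mef2a, a relative of Mef2c, went from 6.70 ± 0.13 to 7.01 ± 0.17, also 0.31 (SE 0.12, limma adjusted p = 0.339). These were the 2 of 14 genes at an unadjusted limma p of 0.05, both higher, against 12.8% of all genes in either direction and 3.84% higher in null tissue. Foxc2, a forkhead factor of arch mesenchyme and outflow tract, had -0.44 (SE 0.26). Isl1, the LIM-homeodomain factor of the second heart field and of motor neurons, was bright and had 0.12 (SE 0.16), while Hand1, Hand2, Tbx1 and Tbx2 had no array over log2 4. The T-box genes Tbx3 (mean 6.81 in wildtype and 6.79 in null tissue) and Tbx5 (4.94 and 5.06) were over the expression level. Of 20 signalling and matrix genes of the outflow tract and second heart field 10 were measured and 0 passed (median 0.01), with Has2, the hyaluronan synthase of cardiac jelly, at 0.33 (SE 0.18), Vcan, its proteoglycan partner versican, at 0.21 and Postn, the matrix protein periostin, at 0.27.

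Markers of the other tissues that could supply these transcripts did not pass either, 0 in each list over all genes tested. Of 16 skeletal muscle and somite genes 4 were measured (median 0.02), with Myh3, the embryonic myosin heavy chain, at -0.41 (SE 0.19, limma adjusted p = 0.407), and Myog and Tnnc2 at 0.04 and 0.03. Myog, a factor of muscle differentiation, read 5.25 ± 0.29 (SD, n = 5) in wildtype, over the expression level, and the defining gene Acta1 read 2.29 on all arrays. Of 8 smooth muscle genes 3 were measured (median -0.27), with Tagln, an actin-binding protein of smooth and early heart muscle, at -0.45 (SE 0.20, limma adjusted p = 0.389), Cald1, caldesmon, at -0.27 and Acta2, smooth muscle actin, at 0.004. Smooth muscle, whose summed linear signal ran from 1060 to 1241 in wildtype and from 796 to 1124 in null arrays, was the list with the lowest median. Its part in the Myl4 and Tbx20 values was not tested.

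Of 12 endothelial and endocardial genes 5 were measured (median -0.05), with Emcn, endomucin, at -0.23, Kdr, a receptor of vascular growth factor, at -0.26 and Tek, an angiopoietin receptor, at 0.14. Of 9 erythroid genes 4 were measured (median 0.38), with the embryonic globins Hba-x at 0.57 and Hbb-bh1 at 0.24 and Slc4a1, the anion exchanger of red cells, at 0.52. None of the 4 epicardial genes was measured. Of 10 genes of foregut endoderm and liver bud 3 were measured (median 0.03), with Ttr at 0.52, Epcam at -0.03 and Cldn6 at 0.03. Of 10 neural crest and arch mesenchyme genes 7 were measured (median 0.19), with Ets1 at 0.41, Tfap2a at 0.51 and Pdgfra at 0.19, and of 9 neuronal genes 8 (median 0.11), with Snap25 at 0.46, Nefl at 0.48 and Nefm at -0.26. The neural crest list had a summed linear signal of 2398 to 3052 in wildtype and 2310 to 3477 in null arrays.

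The genes whose signal followed the contractile genes most closely were on none of the lists above. Myl4 and Actc1, the 2 contractile genes over the expression level, were scaled and averaged, and 5908 other genes were ranked by their correlation with this mean over the 10 arrays. The 10 highest were Selenos (r = 0.87), Fmc1 (0.86), Zpr1 (0.85), Slc25a4 (0.84), Wdr90 (0.83), Timm8b (0.82), Mrps35 (0.81), Ptrhd1 (0.81), Cmas (0.81) and Lpl (0.80), against a median of 0.066 over all genes. In all, 11 genes had r over 0.8, and the 20th had 0.78. These genes were picked as the highest of 5908 over only 10 arrays. Whether more genes reached such r than unrelated genes would was not tested. Slc25a4 is the mitochondrial ADP/ATP carrier of heart and muscle, Timm8b and Mrps35 are mitochondrial proteins of import and translation, and Lpl is a lipase of fat, muscle and heart. The other genes are not described here, and a role shared by the 10 was not tested. The mean was 2.06 in wildtype replicate 5 and between -0.81 and 0.70 in the other arrays. Without that array the correlations of the 10 genes were 0.19 (Mrps35) to 0.85 (Selenos), with 0.58 for Slc25a4, 0.56 for Timm8b and 0.65 for Lpl. With values taken as deviations from the genotype means, 3 of the 10 remained among the highest 10: Selenos, Fmc1 and Lpl. None of the 10 passed the comparison of the genotypes (limma adjusted p = 0.390 to 0.920).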

How the data were processed

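RNA of 10 dissected tissues was labelled with biotin and hybridised to Affymetrix mouse arrays, 1 array per sample, and groups and replicate numbers came from the sample titles. The values the authors deposited are on the log2 scale and, per the submitters' processing notes, come from GCRMA, a method that models background by probe sequence and brings arrays to a common scale. Its version and a genome build are not given in the sources used here. Of 22690 probe sets 64 controls were left out, and 20380 had 1 gene symbol in the platform annotation, 691 several and 1555 none. Probe sets over log2 4 on at least 5 of 10 arrays were kept (9801, for 5912 genes by the brightest probe set). Genotypes were compared with limma 3.58.1 in R 4.3.3 (lmFit and eBayes, genotype alone, two-sided, Benjamini-Hochberg over all probe sets kept, threshold 0.05), with 95% intervals from the same fit, and probe sets not kept were fitted among all 22626. Single probe sets were also compared with exact permutation tests over the arrays, of which 0 of 19 gave p under 0.05. Correlations used 100000 permutations. The fit was tested on simulated data with the spread of the kept probe sets. It recovered 20.8% of log2 changes of 0.5, 76.9% of changes of 1 and 95.2% of changes of 1.5. The simulated noise was normal and independent between probe sets. Many more probe sets were changed there than the 2 of 9801 called in the real data, which makes the adjusted threshold easier to pass. These shares may therefore overstate what the real comparison could recover. Motifs were searched in RefSeq promoter windows.

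The members and the lists were chosen with earlier results of these data known, so lists are described by counts and medians with no test of the list. The genes named are all members, Fbln1, the list members past the threshold or with the 3 smallest p-values, and the 10 genes most like the contractile members. Afp, Alb, Isl1, the T-box and Hand genes and the genes at the bottom of the scale were named after their values were seen. The alternatives were scaling, filter, floor, variance trend, array weights, the replicate number as a block, the actin probe ratio, arrays left out and averaging over each gene's probe sets. Leaving out wildtype replicates 2 and 5, and pairs with dim genes, were choices made after seeing the data. The number of arrays limits the precision.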

Additional observations from a re-analysis of the deposited data

Results flagged for a closer look

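Of 38 groups of 5 arrays, which are 19 probe sets in 2 genotypes, 12 had an array far from the other 4 by Dixon's test (31.6%), and in all 12 it was the highest array. Over all probe sets of the array the share was 27.4%, where the test's nominal rate is about 1 in 20. It was 42.5% among probe sets not over the expression level and 7.56% among those over it. All 12 were among the 24 groups of heart probe sets not over that level, and 0 of the 14 groups over it had such an array. In 6 of the 12 the array that stood apart itself read under log2 2.5, at the bottom of the scale: Myl4 on its dimmer probe set in wildtype replicate 1 (2.34) and null replicate 5 (2.296), Gata4 on its dimmer probe set in wildtype replicate 2 (2.29), Gata6 on its dimmer probe set in wildtype replicate 2 (2.40) and null replicate 8 (2.34), and Tbx20 on its dimmer probe set in wildtype replicate 4 (2.33).

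The 6 others were Tnni1 in null replicate 8, at 4.36 where the next null array read 3.67, Nkx2-5 in null replicate 8 (2.55, next 2.27), Gata4 in wildtype replicate 5 (2.80, next 2.27) and in null replicate 5 (2.57, next 2.27), Gata6 in null replicate 5 (3.36, next 2.31) and Mef2c on its dimmest probe set in wildtype replicate 4 (2.84, next 2.28). Only Tnni1 crossed log2 4. Outside the heart genes, Afp stood apart in wildtype replicate 5 on both of its brightest probe sets (7.30, next 2.39 in wildtype, and 6.53, next 2.72).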

How the results depend on the processing

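Under all 21 alternatives 0 heart probe sets passed, and the median log2 fold change of the measured heart genes stayed negative, from -0.32 to -0.08. Its range with 1 array left out was -0.32 to -0.13. Of the single genes, Actc1 changed sign without wildtype replicates 2 and 5 (0.065), while the brightest probe sets of Myl4, Mef2c and Tbx20 stayed negative wherever they were tested. Of the other Mef2c probe sets, one near 0 (0.03) ranged from -0.095 without null replicate 7 to 0.13 without null replicate 3. With a filter at log2 6 Myl4 and Tbx20 were not tested. Over the whole array the count past the threshold moved from 2 to 1 without a filter, 8 with a variance trend, 34 with a filter at log2 6 or with array weights, 12 with each gene's probe sets averaged, and 0 with the actin probe ratio, without wildtype replicates 1 and 2, or without replicates 2 and 5, and it was 0 to 7 with 1 array left out. Leaving out wildtype replicate 3 gave 7, null replicate 3 gave 3, null replicate 4 gave 2, wildtype replicate 5 gave 1 and each of the others 0, and the cause was not tested. Replicate numbers 3, 4 and 5 occur in both genotypes, but same-numbered arrays did not deviate together (r = -0.19, -0.34 and 0.16). Of these arrays only null replicate 5 matched its own number best. With the replicate block 0 probe sets passed. The log2 fold changes there were -0.29 for Myl4, -0.35 for Actc1, -0.28 for Mef2c and -0.74 for Tbx20. With the actin probe ratio in the model they were -0.43, -0.003, -0.07 and -0.13, in the same order. With array weights they were -0.37, -0.17, -0.16 and -0.06. The actin probe ratio is the log2 signal of the 3′ beta-actin control probe set minus that of the 5′ one. This ratio was at most 2.38 in wildtype arrays. It was 2.59, 2.45 and 2.85 in null replicates 3, 4 and 5, above every wildtype array, and 2.33 and 2.19 in null replicates 7 and 8. The ratio thus differed in part along with genotype. The part of this ratio in the lower means was not tested further. Of the 10 genes most like the contractile genes 3 remained with deviations from the genotype means. Signal limits 12 of the 19 heart probe sets, which were not over the expression level.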
